A study of Mus musculus with 8 samples.

Results

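The genes described here are 10 targets of the transcription factor p53 that act in cell cycle arrest or feed back on p53: Cdkn1a, Ccng1, Mdm2, Plk2, Plk3, Btg2, Sesn1, Sesn2, Trp53inp1 and Zmat3. They were taken from a list of symbols that was chosen with earlier results of these data known. Each symbol matched 1 of the 55416 gene IDs in the deposited tables. All 10 passed the filter on low counts, which left 14063 genes. RNA was sequenced from organoids of the small intestine, epithelial cultures grown in a gel, made from C57BL/6 mice aged 4 to 8 weeks. The mice carried Rosa26-rtTA and Col1A1-TetO-OSKM, each as Tg/Tg, a transgene pair that allows induction of the reprogramming factors. All 4 groups share this genotype, and the labels name no inducer. The groups were control organoids at day 4, organoids given 6 Gy of X-rays at day 4, and the same 2 conditions at day 7, with 2 libraries each. The starting point of the day count is not in the labels, nor is it stated whether the 2 libraries of a group came from separate cultures or mice. P-values therefore measure the spread between libraries, which may be technical.

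In cells with damaged DNA, p53 is stabilised and binds target genes to raise their transcription. Some products stop the cell cycle (Cdkn1a encodes p21, which inhibits cyclin-dependent kinases), others limit p53 itself (Mdm2 encodes the ubiquitin ligase that marks p53 for degradation), and others act on growth signalling or RNA. In the intestinal epithelium, p53 and p21 are known for their part in the response of crypt cells to radiation, where dividing cells arrest or die before the epithelium is rebuilt. Several of these genes also respond to inputs other than p53.

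Expected counts, which are estimates that share ambiguous reads between genes, summed to 7541764 to 16054269 per library. Levels are given as CPM (counts scaled to a common library size, with TMM factors from edgeR). Tests were made with edgeR over all tested genes, and a gene was called when its Benjamini-Hochberg adjusted p was under 0.05. Mitochondrial transcripts took 12.9% to 20.7% of the counts in 7 libraries and 27.6% in irradiated replicate 2 of day 4. The label of epithelial cells was set against marker lists. The 8 enterocyte markers summed to 1938 to 2410 CPM in controls, and the 6 immune markers to 2.56 to 3.54 CPM. The 5 endothelial markers summed to 1.40 to 5.33 CPM over all 8 libraries, with Cdh5 and Kdr at 0 counts in each and the other 3 above the filter. The 6 mesenchymal markers summed to 15.7 to 20.3 CPM at day 4 and to 3.01 to 5.06 CPM at day 7, and 4 of them were under 1 CPM in every library.

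Promoter sequence was searched since the 10 genes are grouped as p53 targets. It is shown for the members whose upstream region holds at least 1 match to the 10-base motif described below. A single match is not a full p53 site. RefSeq start sites in the build GRCm38.p6 gave windows of 250 bases before the start for 8 of the 10 members, matched by symbol. The motif searched was the 10-base p53 response element decamer without mismatch. It is its own reverse complement, so 1 search covers both strands. A decamer was found in 4 of the 10 windows of members and in 2341 of all 32851 windows (7.13%). A full site was counted as 2 adjacent decamers, 20 bases, with at most 1 mismatch outside the central C and G of each. This definition was chosen after the members' windows had been read. A full site was found in 2 windows of members, those of Cdkn1a and Ccng1, and in 19 of all windows (0.0578%). The 4 windows follow 5′ to 3′ on the strand of the gene, with decamers and full sites in capitals. For Cdkn1a and Sesn1 the window is 1 of 2 start sites, and the window of the other start held 0 decamers and 0 full sites.
Cdkn1a, chr17:29090729-29090978, plus strand: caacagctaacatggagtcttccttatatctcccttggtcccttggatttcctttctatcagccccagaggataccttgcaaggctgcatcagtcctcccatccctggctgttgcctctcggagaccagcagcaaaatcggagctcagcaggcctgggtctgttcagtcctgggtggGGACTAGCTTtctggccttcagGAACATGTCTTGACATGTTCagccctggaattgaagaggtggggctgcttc
Ccng1, chr11:40755287-40755536, minus strand: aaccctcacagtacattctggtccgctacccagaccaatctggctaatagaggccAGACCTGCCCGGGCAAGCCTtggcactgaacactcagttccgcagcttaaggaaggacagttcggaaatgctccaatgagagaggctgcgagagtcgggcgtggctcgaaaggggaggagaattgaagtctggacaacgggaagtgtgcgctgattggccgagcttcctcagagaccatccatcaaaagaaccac
Mdm2, chr10:117710759-117711008, minus strand: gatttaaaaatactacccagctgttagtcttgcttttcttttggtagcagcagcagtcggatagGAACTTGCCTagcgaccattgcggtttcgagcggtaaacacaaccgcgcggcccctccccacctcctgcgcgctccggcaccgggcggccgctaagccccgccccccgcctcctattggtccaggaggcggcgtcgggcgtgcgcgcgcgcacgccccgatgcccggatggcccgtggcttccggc
Sesn1, chr10:41887189-41887438, plus strand: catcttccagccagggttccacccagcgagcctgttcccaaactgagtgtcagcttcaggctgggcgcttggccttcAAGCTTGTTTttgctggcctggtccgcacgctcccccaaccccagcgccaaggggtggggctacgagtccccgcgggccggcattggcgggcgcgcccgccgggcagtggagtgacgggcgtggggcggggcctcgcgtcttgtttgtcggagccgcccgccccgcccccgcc
The full site of Cdkn1a, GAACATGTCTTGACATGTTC, lies 51 to 32 bases before the start shown. A second Cdkn1a decamer, GGACTAGCTT, lies 73 to 64 bases before it. The full site of Ccng1, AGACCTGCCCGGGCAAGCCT, lies 195 to 176 bases before the start. Mdm2 and Sesn1 hold single decamers, GAACTTGCCT and AAGCTTGTTT. No decamer was found in the windows of Plk2, Plk3, Btg2 and Sesn2, which says only that these letters are not in those windows. Of the 19 genes with a full site in a window, 4 were tested, and these were Ccng1, Cdkn1a, Rps27l and Mthfd1. At day 4 the first 3 were called higher after irradiation and Mthfd1, an enzyme of folate metabolism, was called lower (log2 fold change -0.32). Ccng1 and Cdkn1a are members whose windows had been read before the full site was defined. Rps27l is on a list of p53 targets used below. The calls of these genes are therefore no separate evidence about the full site. Of the 706 tested genes with at least 1 decamer, 24.1% were called higher at day 4, against 21.6% of the 9996 tested genes with any window. A match is a description of sequence and not a measurement of p53 binding.

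At day 4, irradiated organoids held more RNA of 9 of the 10 genes than control organoids, with median log2 fold change 1.25 over the 10 and 0.00 over all tested genes. In bulk samples, a change in the number of cells of a type and a change in RNA per cell cannot be told apart. The largest rise was that of Trp53inp1 and the smallest of those called that of Sesn2, while Sesn1 was not called. The share called higher over all tested genes was 20%, and 33.4% of all tested genes had both irradiated libraries above both controls, as did 9 of the members. At day 7, 5 of the 10 were called higher (4.7% of all tested genes), with a median of 0.52. Both irradiated libraries lay above both controls for 8 members (33.3% of all tested genes) and below them for 2, Sesn1 and, by a margin smaller than the last digit given here, Mdm2 (32.6%). Of the members 0 were called lower at day 4 (16.5% of all tested genes), where all 10 values were above 0, and 0 at day 7 (3.95%), where Sesn1 was lower at an unadjusted p of 0.0306.

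**Figure D1:**
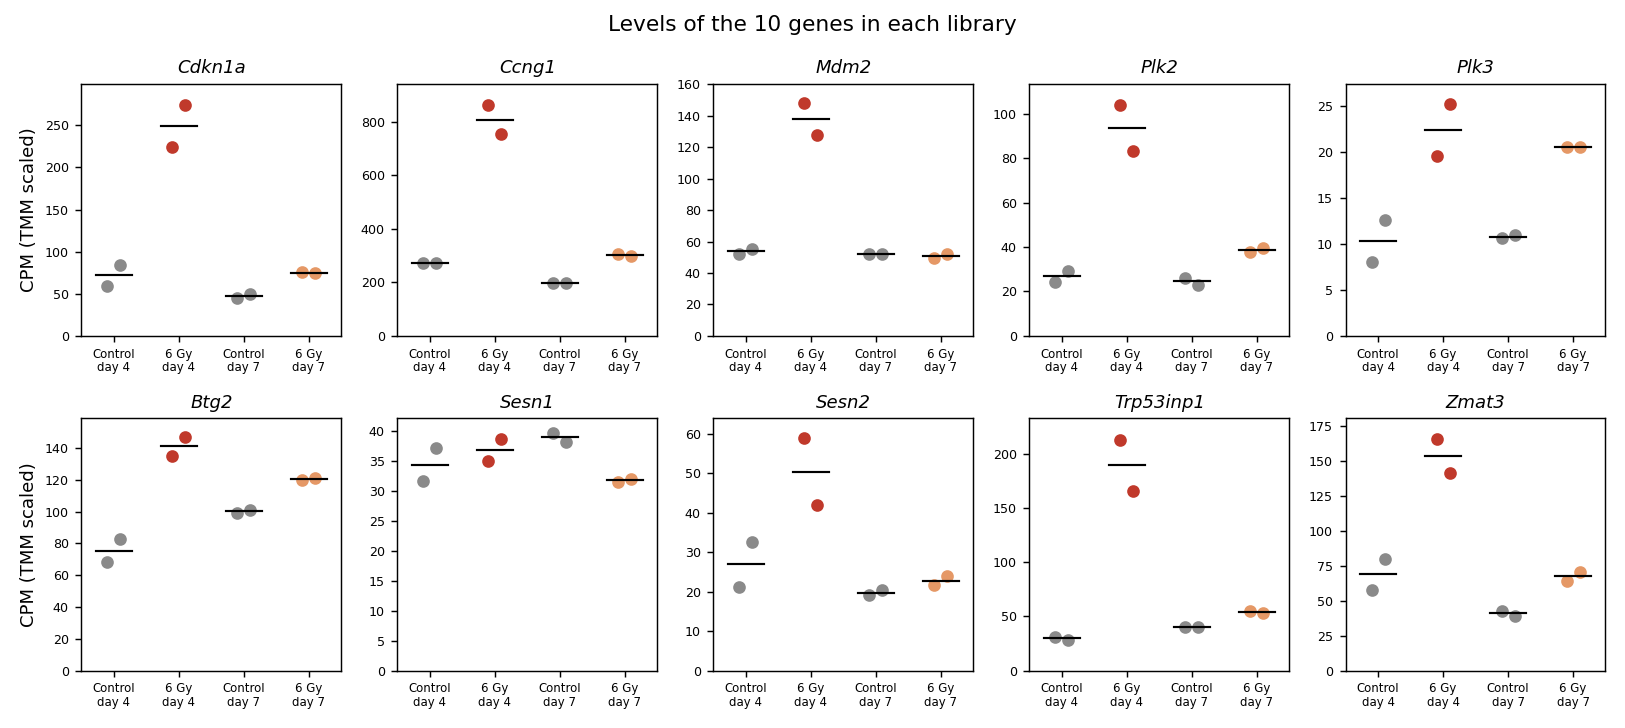
Each panel plots 1 gene in CPM (TMM scaled, axis from 0), with 1 point per library, a line at the mean of each group, controls in grey, day 4 irradiated in red and day 7 irradiated in orange. Mdm2 irradiated at day 7 lies at 49.4 and 51.9 CPM, at the level of its controls, while Plk3 stays near 20.5 CPM, above its controls.

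Among the arrest genes, Cdkn1a, which encodes p21, measured 59.8 and 84.1 CPM in controls and 224 and 274 CPM in irradiated organoids at day 4. At day 7 it measured 45.2 and 49.2 CPM in controls and 75.4 and 74.8 CPM after irradiation. The irradiated libraries lay above the controls at both days without overlap, and those of day 7 lay within the range of the day 4 controls. The log2 fold change was 1.79 (SE 0.16, adjusted p = 8.23e-05) at day 4 and 0.67 (SE 0.16, adjusted p = 0.0423) at day 7.

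Plk2, a polo-like kinase that acts at centrosomes, measured 24.4 and 29.3 CPM in controls and 104 and 83.1 CPM in irradiated organoids at day 4. At day 7 the values were 26.2 and 23.1 CPM in controls and 37.6 and 39.7 CPM after irradiation. Both days were again free of overlap, with log2 fold changes of 1.80 (SE 0.14, adjusted p = 1.21e-05) and 0.65 (SE 0.14, adjusted p = 0.0235). Its relative Plk3, a stress-responsive kinase, measured 8.01 and 12.6 CPM in controls and 19.6 and 25.3 CPM in irradiated organoids at day 4. At day 7 Plk3 measured 10.6 and 10.9 CPM in controls and 20.5 and 20.6 CPM after irradiation. Unlike the other members called at day 4, it had a day 7 level in irradiated organoids inside the range of day 4. The log2 fold change of Plk3 was 1.10 (SE 0.21, adjusted p = 0.00233) at day 4 and 0.93 (SE 0.21, adjusted p = 0.0270) at day 7.

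Btg2, an antiproliferative protein that binds the deadenylation machinery of mRNA, measured 68.3 and 82.8 CPM in controls and 135 and 147 CPM in irradiated organoids at day 4. At day 7 it measured 99.2 and 101 CPM in controls and 120 and 121 CPM after irradiation. The libraries did not overlap at either day, but the controls were higher and the irradiated libraries lower at day 7 than at day 4. Its log2 fold change was 0.90 (SE 0.10, adjusted p = 1.01e-04) at day 4, and 0.26 at day 7 did not pass (SE 0.10, adjusted p = 0.124).

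Among the genes that feed back on p53, Mdm2 measured 52.3 and 55.3 CPM in controls and 148 and 128 CPM in irradiated organoids at day 4. At day 7 it measured 52.0 and 51.9 CPM in controls and 49.4 and 51.9 CPM after irradiation. The control libraries of both days lay between 51.9 and 55.3 CPM, and irradiated replicate 2 of day 7 differed from its controls by less than the spread between libraries. The log2 fold change was 1.36 (SE 0.09, adjusted p = 6.21e-06) at day 4 and -0.04 at day 7, with a 95% interval from -0.25 to 0.18 (adjusted p = 0.857).

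Ccng1, a cyclin that brings the phosphatase PP2A to Mdm2, measured 274 CPM in both day 4 controls and 864 and 753 CPM in irradiated organoids. At day 7 it measured 197 CPM in both controls and 304 and 298 CPM after irradiation. The irradiated libraries lay above the controls at both days, and those of day 7 lay closer to the controls than those of day 4 did. The log2 fold change was 1.56 (SE 0.09, adjusted p = 1.66e-06) at day 4 and 0.61 (SE 0.09, adjusted p = 0.00395) at day 7.

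Trp53inp1, a nuclear protein that promotes p53 activity and takes part in autophagy, measured 31.4 and 28.2 CPM in controls and 212 and 166 CPM in irradiated organoids at day 4. At day 7 the controls were at 40.2 and 39.8 CPM and the irradiated libraries at 54.7 and 53.2 CPM. The groups were apart at both days, by a log2 fold change of 2.67 (SE 0.12, adjusted p = 5.08e-07) at day 4 and of 0.43 at day 7, which did not pass (SE 0.12, adjusted p = 0.0552). Zmat3, an RNA-binding protein that regulates splicing, measured 57.8 and 79.7 CPM in controls and 165 and 141 CPM in irradiated organoids at day 4. At day 7 it was at 42.8 and 38.9 CPM in controls and at 64.3 and 70.4 CPM after irradiation, a range that lies within that of the day 4 controls. The log2 fold change of Zmat3 was 1.15 (SE 0.15, adjusted p = 3.99e-04) at day 4 and 0.72 (SE 0.16, adjusted p = 0.0248) at day 7.

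The sestrins restrain the growth kinase mTORC1 through the GATOR2 complex. Of the 2 among the members, Sesn2 was called at day 4 and Sesn1 at neither day. Sesn2 measured 21.3 and 32.7 CPM in controls and 58.9 and 41.9 CPM after irradiation at day 4. The day 7 values were 19.1 and 20.4 CPM in controls and 21.6 and 24.1 CPM after irradiation, close but without overlap. Its log2 fold change was 0.89 (SE 0.22, adjusted p = 0.0122) at day 4 and 0.21 (SE 0.23, adjusted p = 0.635) at day 7. When irradiated replicate 1 of day 4 was left out, Sesn2 did not pass (log2 fold change 0.60, adjusted p = 0.0617). Sesn1 measured 31.6 and 37.1 CPM in controls and 34.9 and 38.7 CPM in irradiated organoids at day 4, which overlap (log2 fold change 0.10, 95% interval -0.16 to 0.35). At day 7 the irradiated libraries of Sesn1, at 31.4 and 32.0 CPM, lay below the controls at 39.6 and 38.2 CPM, without passing (log2 fold change -0.29, SE 0.12, adjusted p = 0.147).

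The calls at day 7 rest on all 4 libraries of that day. Without either control library of day 7, 0 of the 10 members were called there by edgeR (6 at an unadjusted p under 0.05), and without either irradiated library of day 7, 1 was called, Ccng1. Over all genes the same fits called 105 to 165 genes, against 1216. The fold changes moved little: over all alternatives the day 7 value ran from 0.60 to 0.81 for Cdkn1a, from 0.60 to 0.75 for Ccng1 and from 0.87 to 1.10 for Plk3. When the 4 libraries of day 7 were fitted without those of day 4, 8 members passed, with Btg2, Trp53inp1 (both higher) and Sesn1 (lower) beside the 5. That fit called 4732 of all 13041 genes tested in it (36.3%), against 8.65% in the fit of all libraries.

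**Figure D2:**
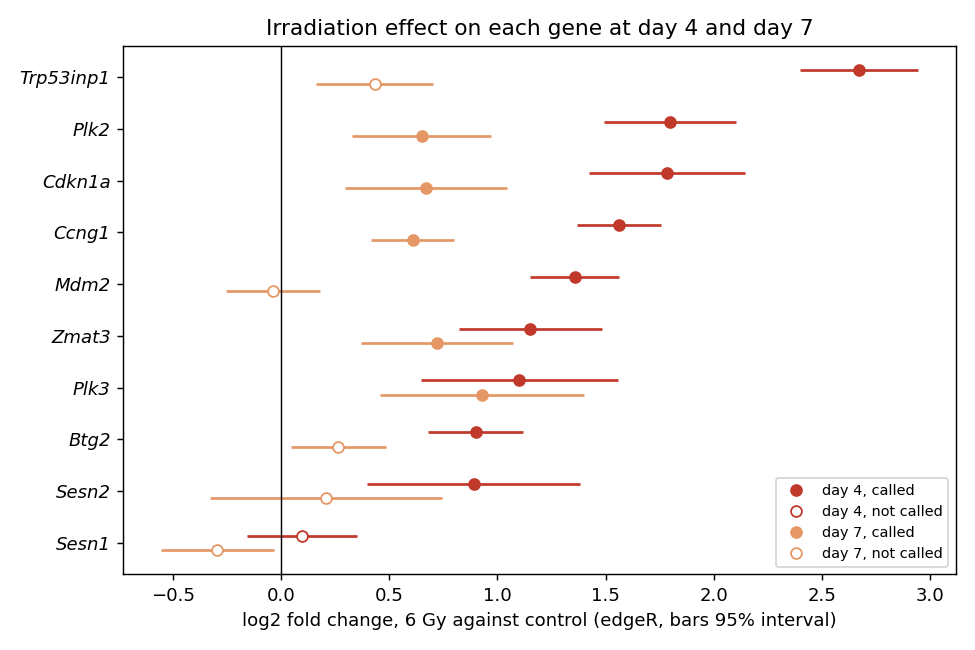
Points give the edgeR log2 fold change of 6 Gy against control for each gene, day 4 in red and day 7 in orange, with bars for the 95% interval and open points where the gene was not called. The day 7 interval of Mdm2 spans 0, and the 2 intervals of Plk3 cover nearly the same range.

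How much of each day 4 rise was left at day 7 was described as the day 7 log2 fold change over that of day 4, for the 9 members called at day 4. The order ran from Plk3, with 84.3% left, through Zmat3 (62.6%), Ccng1 (39.0%), Cdkn1a (37.5%), Plk2 (36.2%), Btg2 (29.4%), Sesn2 (23.2%) and Trp53inp1 (16.2%) to Mdm2 (-2.71%). Leaving out each library in turn moved Plk3 from 62.9% to 114%, Zmat3 from 51.5% to 77.0%, Sesn2 from 16.7% to 37.9% and Mdm2 from -3.72% to 3.45%. The ranges of Cdkn1a (32.7% to 42.6%), Ccng1 (36.8% to 43.1%) and Plk2 (31.0% to 41.5%) overlapped, and Trp53inp1 stayed between 15.3% and 18.6%. The largest riser, Trp53inp1, thus kept a smaller share than Cdkn1a and Ccng1 did in each of these fits, while the difference between genes was not tested. The median was 36.2% for the 9 members and 32.1% for all 2808 genes called higher at day 4 (quartiles 7.58% and 55.5%), so that as a set the members lay near the other genes that rose.

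Counted as CPM above control, the shares were lower than on the log2 scale for 7 of the 9 members, with Btg2 and Mdm2 the exceptions. Cdkn1a was 177 CPM above control at day 4 and 27.9 CPM at day 7, which is 15.8% of the first. Ccng1 was 535 and 104 CPM above control (19.4%), Zmat3 84.5 and 26.5 CPM (31.3%), and Plk3 12.1 and 9.76 CPM (80.6%). The median on this scale was 19.4%. Plk3 kept the largest share and Mdm2 the smallest on both scales.

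**Figure D3:**
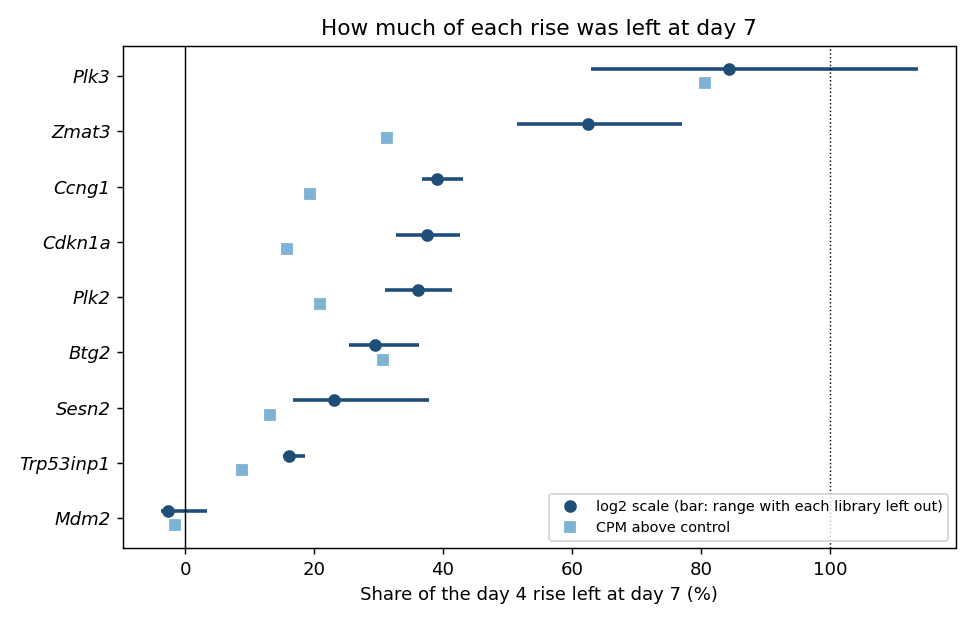
Dark circles give the share of the day 4 log2 rise left at day 7 in percent, with bars for the range when each library was left out, and light squares the share of the CPM above control. Plk3 has the largest share on both scales (84.3% and 80.6%) and Mdm2 lies at 0 within its range.

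The test of the difference itself, the irradiation effect at day 7 less that at day 4, called 6 members lower (5.51% of all tested genes) and 0 higher (4.6%) by edgeR, with all 10 values below 0. Trp53inp1 lost most (-2.24, SE 0.17, adjusted p = 2.04e-04), followed by Mdm2 (-1.39, SE 0.13, adjusted p = 7.21e-04), Plk2 (-1.15, SE 0.20, adjusted p = 0.00830), Cdkn1a (-1.12, SE 0.23, adjusted p = 0.0202), Ccng1 (-0.95, SE 0.12, adjusted p = 0.00245) and Btg2 (-0.63, SE 0.14, adjusted p = 0.0203). Among genes called higher at day 4 as these were, 24.7% were called lower in this test. Leaving out a library of day 7 left 3 or 4 members called: without control replicate 1 and without either irradiated replicate it was 3, and without control replicate 2 it was 4. Trp53inp1, Mdm2 and Ccng1 kept their call in all 8 such fits, and Cdkn1a lost it in 5 of them, among them that without irradiated replicate 2 of day 4 (adjusted p = 0.0554).

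The other 4 genes were not called for the change in effect. The interval of the difference ran from -0.83 to 0.48 for Plk3 (adjusted p = 0.753), from -0.91 to 0.05 for Zmat3 (adjusted p = 0.226), from -1.41 to 0.04 for Sesn2 (adjusted p = 0.206) and from -0.75 to -0.03 for Sesn1 (adjusted p = 0.157). A loss as large as that of Mdm2 lies outside the intervals of Plk3, Zmat3 and Sesn1. That loss is larger than their whole day 4 log2 fold changes (1.10, 1.15 and 0.10). The bound therefore does not show that they kept more of a rise than Mdm2. Zmat3 was called lower (-0.68, adjusted p = 0.0448) without control replicate 2 of day 4, and Sesn2 (-0.58, adjusted p = 0.0453) with no filter on low counts.

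Most of these transcripts were lower in irradiated organoids of day 7 than in those of day 4. Of the 10 members, 7 were called lower at day 7 than at day 4 after irradiation (18.3% of all tested genes): Trp53inp1 (-1.81), Cdkn1a (-1.73), Mdm2 (-1.45), Ccng1 (-1.42), Plk2 (-1.28), Zmat3 (-1.19) and Sesn2 (-1.14). Plk3 (-0.13), Btg2 (-0.23) and Sesn1 (-0.21) did not pass. Sesn2 did not pass when irradiated replicate 1 of day 7 was left out (adjusted p = 0.0651). This comparison shares its day 4 and day 7 irradiated libraries with the effects above.

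The control level moved as well for some members, which changes what counts as above control. In controls 2 of the 10 were called lower at day 7 (1.46% of all tested genes), Zmat3 (-0.76, SE 0.15, adjusted p = 0.0375) and Ccng1 (-0.47, SE 0.09, adjusted p = 0.0221). Both calls were lost without control replicate 2 of day 4, without either control library of day 7 and without either irradiated library of day 7. Zmat3 measured -0.50 without control replicate 2 of day 4 (adjusted p = 0.124). Cdkn1a (-0.61, adjusted p = 0.0922), Btg2 (0.41, adjusted p = 0.0593) and Trp53inp1 (0.43) did not pass, and each was called when some other library was left out. Cdkn1a was called lower without control replicate 1 of day 4 (adjusted p = 0.00951). Btg2 and Trp53inp1 were called higher without either irradiated library of day 4 (highest adjusted p = 0.0155), and Btg2 also without control replicate 2 of day 4 (adjusted p = 0.0355).

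Compared per gene length, in TPM, Ccng1 had the highest level of the 10 in all 4 groups, with 104 ± 6.60 TPM (SD, n = 2) in controls and 269.8 ± 69.0 TPM after irradiation at day 4. Cdkn1a was next at day 4 in both conditions (52.0 ± 16.1 and 154 ± 4.38 TPM), where it overlapped with Btg2 in controls and lay apart from Mdm2 after irradiation. At day 7 Btg2 lay between them, at 50.8 ± 1.32 TPM in controls and 67.5 ± 0.870 TPM in irradiated organoids, with Cdkn1a at 35.1 ± 2.63 and 61.4 ± 0.481 TPM. Trp53inp1 was at the low end in day 4 controls with Plk3 (7.35 ± 0.127 and 6.16 ± 2.28 TPM, overlapping), and after irradiation it overlapped with Plk2 (43.3 ± 13.4 and 47.1 ± 15.2 TPM). Plk3 was the lowest of the 10 in 3 groups, and in irradiated organoids at day 7 Sesn2 was (10.1 ± 0.806 TPM).

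The profiles of members over the 8 libraries were compared by the root mean square difference of log2 CPM centred on each gene's mean. Among members, Ccng1 and Plk2 were most alike (0.18) and Sesn1 and Trp53inp1 least (1.01). Among 9117 other genes averaging 10 CPM or more, the nearest to Cdkn1a were Ptprh, a receptor-type phosphatase (0.14), Slc5a9, a sodium-coupled sugar transporter (0.16), and Mpp1, a membrane scaffold protein (0.17). The nearest to the others were Slc26a2 for Ccng1 (0.14), Ccp110 for Mdm2 (0.13), Dcxr for Plk2 (0.11), Dusp5 for Plk3 (0.13), Src for Btg2 (0.07), Arih1 for Sesn1 (0.06), Ccnd2 for Sesn2 (0.11), Rab31 for Trp53inp1 (0.25) and Sulf2 for Zmat3 (0.09). The points are 8 libraries that fall into 4 groups and share their scaling. Dusp5, a MAP kinase phosphatase, went from 18.4 to 38.6 CPM at day 4 and from 20.2 to 41.4 CPM at day 7. Its likeness to Plk3 follows from its choice as the nearest profile.

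The RNA of p53 itself was not called at day 4. Trp53 measured 61.2 and 66.7 CPM in controls and 69.4 and 52.9 CPM in irradiated organoids, which overlap (log2 fold change -0.07, adjusted p = 0.712). At day 7 it was called higher at the edge of the threshold (0.44, adjusted p = 0.0493), a call lost by DESeq2, by limma-voom and without either control library of day 4 or any library of day 7. Of the 12 p53 regulators tested, 1 was called higher at day 4 and 5 lower (16.5% of all tested genes were lower), with a median of -0.20. Rchy1, a ubiquitin ligase for p53, was the gene called higher (0.58). The kinases of the damage response Atm (-0.57), Chek2 (-0.63) and Chek1 (-0.65) and the deubiquitinase Usp7 (-0.23) were called lower. Chek1 did not pass without control replicate 2 (adjusted p = 0.0807) or irradiated replicate 2 of day 4, nor did Usp7 without control replicate 1 of day 4 or any library of day 7 (highest adjusted p = 0.0640). Mdm4, the partner of Mdm2, was at 195 and 174 CPM on average and was not called (-0.17, adjusted p = 0.209), though it was without control replicate 1 of day 4 (-0.31, adjusted p = 0.0382).

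Other p53 targets were higher as well at day 4, most of those of apoptosis and fewer of those in repair and metabolism. Of all tested genes, 20% were called higher and 16.5% lower. Of 13 apoptosis targets tested, 12 were called higher and 0 lower at day 4 (median 0.80), and 5 higher at day 7 (median 0.43), a count that was 0 without any 1 of the 4 day 7 libraries, as were the day 7 counts of the other lists below. The death receptor Fas rose from 2.10 ± 0.0409 CPM (SD, n = 2) in controls to 16.4 ± 2.52 CPM after irradiation at day 4 (log2 fold change 2.96) and was called at day 7 (1.09), as was Eda2r (2.17 and 1.15). Perp, a membrane protein of desmosomes, rose by 0.84 and Ei24 by 0.53 at day 4. Of 19 targets in repair and metabolism, 8 were called higher, 3 lower and 8 not at all at day 4 (median 0.28), and 3 higher at day 7. The genes named from this list had the smallest p or the highest level, and the 3 called lower are not among them. Ephx1, the microsomal epoxide hydrolase, rose at both days (1.69 and 0.92), as did Rps27l (0.35 and 0.54), whose day 4 call was lost in 6 of the 8 fits that left out a library (lowest value 0.21). Dcxr rose by 1.74 and Ercc5, an endonuclease of excision repair, by 0.89. Zfp365 reads numbered 2 in both controls of day 4 together and 196 after irradiation, 149 times as many for the depth (95% counting interval 40.8 to 1241). With so few control reads, a gene can pass the filter on low counts through irradiated libraries alone. The counting interval also leaves out the spread between libraries, so the rise of Zfp365 carries little weight. These lists were compiled with earlier results of these data known.

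Family relatives of the members that are not in the p53 target lists used here moved in both directions. Their list shares Mdm4 with the p53 regulators and Plk1 with the cell cycle genes downstream of p21. Of 15 tested, 5 were called higher and 2 lower at day 4 (20% and 16.5% of all tested genes), with a median of 0.35. At day 7, 0 were called by edgeR, DESeq2 or limma-voom, with 2 at an unadjusted p under 0.05 in edgeR. Without any 1 of the 4 libraries of day 4, edgeR called 1 of them at day 7. Trp53inp2, the relative of Trp53inp1, rose by 1.14 at day 4. Cdkn1b, which encodes the p21 relative p27, fell by 0.99, and Plk4, the kinase of centriole duplication, fell by 0.70. Ccni, a cyclin, was not called (0.08, adjusted p = 0.494). Zmat4 reads numbered 3 in the day 4 controls and 54 after irradiation, 27.4 times as many for the depth (counting interval 8.89 to 137). The limits given for Zfp365 hold for Zmat4 too.

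Most genes in a list of cell cycle genes placed downstream of p21 were lower at day 4. Of 20, 18 were called lower (16.5% of all tested genes) and 0 higher (20%), with a median of -0.80. At day 7, 1 was called lower, Mki67 (list median 0.07). The part of p21 in these levels was not tested. Mki67, the proliferation antigen, fell by 1.14 at day 4 and by 0.36 at day 7. Top2a (-0.87), Foxm1 (-0.92) and Cenpa (-0.95), of DNA untangling, mitotic transcription and centromeres, fell at day 4. Of 12 genes of the G1 machinery, 2 were called higher and 5 lower at day 4 (20% and 16.5% of all tested genes). The cyclin Ccnd2 rose by 1.03, and Cdk2 (-0.82), Rbl1 (-0.54), Cdk4 (-0.41) and Pcna (-0.34) fell, Cdk4 by 0.25 without irradiated replicate 2 of day 4.

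**Figure D4:**
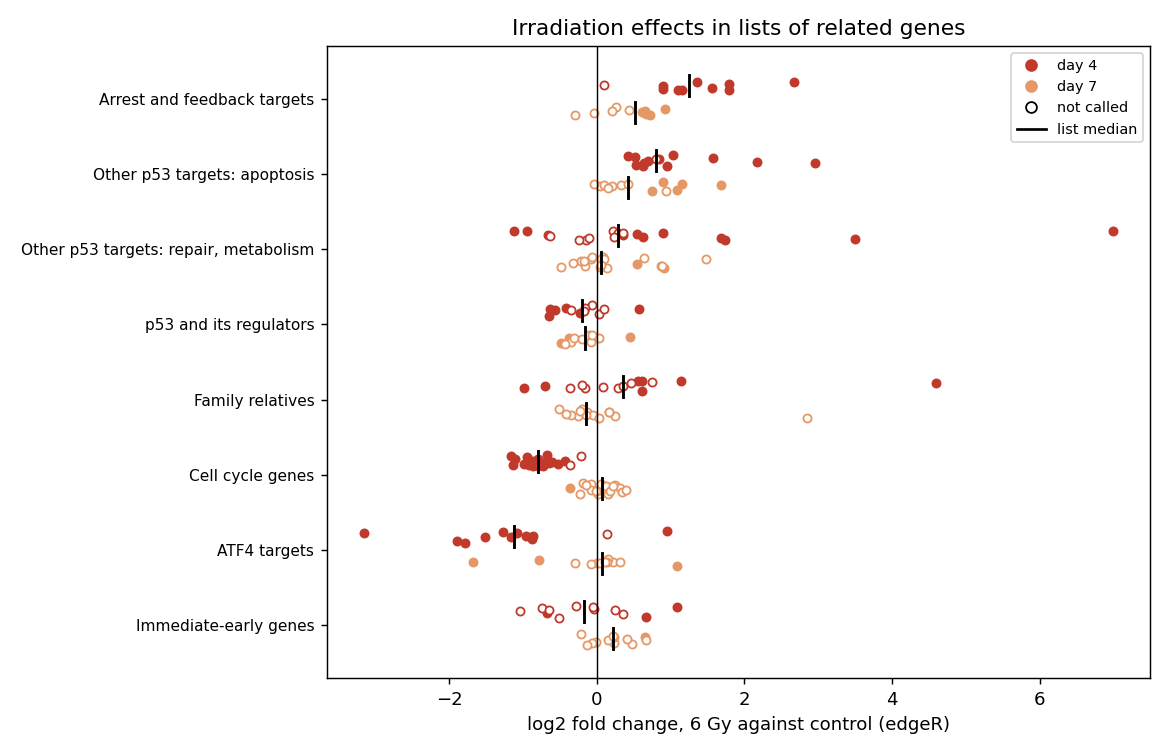
Each point is the edgeR log2 fold change of 1 gene for 6 Gy against control, day 4 in red and day 7 in orange, open where not called, with a black line at the median of each list. The medians of the arrest and feedback targets are 1.25 and 0.52, and those of the cell cycle genes -0.80 and 0.07.

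Sestrin partners and other brakes of mTORC1 showed 2 higher and 3 lower of 14 at day 4 (median -0.07). Of all tested genes 20% were called higher and 16.5% lower, so this list lay near those shares. Castor2, an arginine sensor relative, rose by 1.68, while Seh1l and Wdr59 of GATOR2 and the stress-induced Ddit4 fell by 0.70, 0.69 and 0.82. Tsc2 was not called (-0.10, adjusted p = 0.422). Sesn2 is known to respond to the transcription factor ATF4 as well, and of 12 ATF4 targets tested 10 were called lower and 1 higher at day 4 (median -1.13). The part of ATF4 in the level of Sesn2 was not tested. Aldh1l2 (-3.15), Atf5 (-1.78), Mthfd2 (-1.28), Asns (-1.17) and Phgdh (-0.86) fell. Btg2, Plk2 and Plk3 can also respond as immediate-early genes, and the part of such a response in their levels was not tested. Of 12 immediate-early genes, 2 were called higher and 1 lower at day 4 (20% and 16.5% of all tested genes), with a median of -0.17. The number called changed when some libraries of day 4 were left out. Klf6 (1.09) and Zfp36 (0.67) rose and Ier2 (-0.68) fell, and Zfp36 (adjusted p = 0.0567) lost its call without irradiated replicate 2 of day 4. Ier2 lost its call without control replicate 2 or either irradiated library of day 4 (highest adjusted p = 0.190). Fos (-0.52, adjusted p = 0.265) and Egr1 (-0.65, adjusted p = 0.181) were not called, but both were lower without control replicate 1 of day 4 (-0.94 and -1.08). At day 7, 1 immediate-early gene was called higher, Ier3 (0.66).

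Markers of several cell types differed at day 4, in both directions. All 8 enterocyte markers were called higher, and their summed level was 2229 to 2410 CPM in controls and 7394 to 13461 CPM in irradiated organoids at day 4, then 1938 to 1976 and 3141 to 3168 CPM at day 7. The 6 Paneth markers summed to 754 to 1102 CPM in controls and 2939 to 4286 CPM after irradiation at day 4, and to 1499 to 1529 and 1174 to 1190 CPM at day 7. The 6 stem cell markers summed to 3007 to 3060 and 1818 to 1906 CPM at day 4 and to 4231 to 4311 and 2865 to 2944 CPM at day 7. All 5 tuft markers were called lower at day 4 (median -2.29), with sums of 15.4 to 16.6 CPM in controls and 3.33 to 4.57 CPM after irradiation, and 7.45 to 8.80 and 4.33 to 5.51 CPM at day 7. Of the 6 goblet markers, 2 were called higher and 2 lower at day 4, and they summed to 1958 to 2307 and 1825 to 2179 CPM at day 4 and to 1291 to 1344 and 833 to 886 CPM at day 7. The 6 enteroendocrine markers, 2 of them called higher at day 4, summed to 1354 to 2397 and 2464 to 2624 CPM at day 4, and to 589 to 590.2 and 504 CPM at day 7. The 6 immune markers summed to 2.56 to 3.54 and 8.39 to 10.9 CPM at day 4, and to 3.40 to 3.44 and 3.57 to 4.45 CPM at day 7. Of these 6, 3 passed the filter and all 3 were called higher at day 4. At such low levels a gene can pass the filter through the irradiated day 4 libraries alone, so their shared direction carries little weight. Of the 3 endothelial markers tested, 1 was called higher and 1 lower at day 4. The part of these shifts in the levels of the 10 genes was not tested.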

How the data were processed

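RNA of 8 libraries was sequenced after poly-A selection with a directional kit, per the labels' protocols. STAR 2.7.3a and RSEM 1.3.3 are named in the submitters' processing notes, and the strand setting is not given in the sources used here. The authors deposited expected counts and TPM per gene. Expected counts were rounded (11.4% of values changed) and TMM scaled, genes were kept by filterByExpr (minimum count 10), and 14063 genes were fitted with edgeR 4.0.16 (quasi-likelihood, robust, R 4.3.3) as 4 group means (residual degrees of freedom: 4), with p-values adjusted over the whole table. Deposited TPM values served for levels between genes and, as log2(TPM + 1), for alternatives with limma 3.58.1, and DESeq2 1.42.0 was another. The fitting script was tested on simulated data. The depth of 7541764 to 16054269 counts and 2 libraries a group limit precision. Members and lists were chosen with earlier results of these data known. Besides the members and Trp53, each list's 4 genes of smallest day 4 p and 2 of highest mean CPM were named, with the nearest profiles of each member. No column was left unassigned.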

Additional observations from a re-analysis of the deposited data

Results flagged for a closer look

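The effect of irradiation differed between day 7 and day 4 by edgeR's interaction test, at an adjusted p under 0.05, for 30 of the named genes. Leaving out 1 library of day 7 lowered this count to 11 without control replicate 1, 14 without control replicate 2, 11 without irradiated replicate 1 and 12 without irradiated replicate 2. It was 26 to 29 without a library of day 4, 5 on log2(TPM + 1), 4 on log2(TPM + 0.1), 0 on log2(TPM + 1) without a filter and 20 on centred TPM. In all 8 fits that left out a library, 9 genes were called: Ccng1, Mdm2, Trp53inp1, Trp53inp2, Foxm1, Asns, Mthfd2, Atf5 and Aldh1l2. With all libraries, the interaction test called 4.6% of all tested genes higher and 5.51% lower. Genes outside the members were named partly for a small day 4 p, and the test subtracts the same day 4 effect. That choice favours values of the opposite sign. The value given is the log2 effect at day 7 less that at day 4. Among the arrest and feedback targets it was -1.12 for Cdkn1a, -0.95 for Ccng1, -1.39 for Mdm2, -1.15 for Plk2, -0.63 for Btg2 and -2.24 for Trp53inp1. Other genes that were higher at day 4 had negative values as well: Fas -1.87, Eda2r -1.01, Ephx1 -0.77, Ercc5 -0.83, Rchy1 -0.65, Trp53inp2 -1.29, Ccnd2 -0.75, Castor2 -1.04 and Klf6 -0.86. Zfp365 measured -5.52, a fitted value that rests on 2 counts in the day 4 controls.

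Genes that were lower at day 4 had positive values. For the cell cycle genes these were 0.78 for Mki67, 0.79 for Top2a, 0.97 for Foxm1 and 0.93 for Cenpa. Cdk2 of the G1 machinery measured 0.70. Among the family relatives the values were 0.57 for Plk4 and 0.78 for Cdkn1b, which encodes the inhibitor p27. For the ATF4 targets they were 1.16 for Asns, 1.01 for Phgdh, 1.31 for Mthfd2, 1.89 for Atf5 and 2.37 for Aldh1l2. Ddit4 measured 1.14 and Seh1l 0.51.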

How the results depend on the processing

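The counts of members called were 9 at day 4, 5 at day 7, 6 for the change in effect, 2 between the control days and 7 between the irradiated days. Leaving out each library in turn gave 8 to 9, 0 to 6, 3 to 7, 0 to 4 and 6 to 8, with the group left at 1 library assumed to vary like the others, and a median share left of 31.0% to 40.2%. Limma-voom called 3 at day 7 and 1 between control days, no filter called 6 between control days, and fits of only the groups compared called 8 at day 7. On log2(TPM + 1) and log2(TPM + 0.1), 0 were called at day 7, 1 for the change in effect and 0 between control days, with median shares of 52.1% and 52.7%. Without a filter, log2(TPM + 1) called 5, 0, 0, 0 and 4, with 52.1%. Centring libraries on their median, added after seeing the data, called 1 at day 7 and 0 between control days. The median of all genes moved on log2(TPM + 1) by -0.17 at day 4, 0.12 at day 7, 0.26 for the change in effect and 0.30 between irradiated days, and by -0.18 for the change in effect in DESeq2. The share of CPM above control had a median of 19.4%.

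Signs reversed for some values that did not pass the test. In the fit with all libraries these included Fos at day 4 (-0.52), and Btg2 (-0.23) and Sesn1 (-0.21) between irradiated days. On log2(TPM + 1), with or without a filter, Sesn1 at day 4 was -0.11, Ccni -0.12, Plk3 0.19 for the change in effect and 0.30 between irradiated days, Mdm2 0.16 between control days, and Btg2 0.17 and Sesn1 0.17 between irradiated days. On log2(TPM + 0.1) the same values were -0.12, -0.12, 0.20, 0.32, 0.17, 0.18 and 0.18. On centred TPM, Ccni was -4.69e-05 and Tsc2 0.038 at day 4, and Mdm2 0.10 between control days. Mdm2 at day 7 was 0.017 with no filter and 0.046 without irradiated replicate 1 of day 7. Without control replicate 1 of day 4, Sesn1 was -0.032 at day 4, and Plk3 0.11 for the change in effect and -0.22 between control days. Without control replicate 2 of day 4, Fos was 0.033 and Plk2 0.013 between control days. Without irradiated replicate 2 of day 4, Trp53 was 0.11 and Ccni -0.031 at day 4, and Plk3 0.029 for the change in effect and 0.077 between irradiated days. Over all fits that left out a library, Sesn1 at day 4 ran to 0.21, Trp53 to -0.29, Fos to -0.94 and Mdm2 at day 7 to -0.048. Plk3 ran to -0.55 for the change in effect, 0.43 between control days and -0.29 between irradiated days, and Plk2 to -0.25 between control days.

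Of all genes, 5130 were called at day 4, 1216 at day 7, 1422 for the change in effect, 382 between control days and 4639 between irradiated days. On log2(TPM + 1) these were 2686, 328, 179, 40 and 3892, on log2(TPM + 0.1) 2598, 311, 144, 35 and 3727, without a filter 1488, 100, 2, 25 and 1569, and centred 3792, 462, 705, 47 and 3461. No filter on counts gave 2044, 2456 and 1217 at day 7, for the change in effect and between control days, and only the groups compared gave 3228, 4732 and 620 at day 4, at day 7 and between control days. Leaving out a library gave 3842 to 5101, 105 to 2341, 244 to 2718, 17 to 1234 and 2094 to 5252. Replicate numbers were entered as a replicate block: 9, 6, 6, 3 and 7 members were called, with a median share of 36.3%. Deviations of same-numbered libraries correlated by -0.035 to 0.058. No shared effect of the replicate number was seen, which cannot tell whether same-numbered libraries had a common origin.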
